A study of Mus musculus with 9 samples.

Results

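The genes described here are 10 mouse genes for factors that bind DNA at promoters: *Yy1*, *Zfp143*, *Thap11*, *Nrf1*, *Gabpa*, *Elf1*, *Sp1*, *Nfya*, *Nfyb* and *Creb1*. They were chosen by the binding motifs found under BAP1 peaks in these data, so the motif content of the peaks in general is given below as a description of what selected them, with no test. For each of the 10 genes, among 22367 protein-coding and 37273 annotated genes in all (GENCODE release M1, mm9 genome), every BAP1 peak was taken whose middle lay within 1 kb of any annotated transcription start site (TSS). The 10 genes held 18 peaks of the 13164 in the list.

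The study mapped BAP1, a deubiquitinase of histone H2A, by chromatin immunoprecipitation and sequencing (ChIP-Seq) in Ba/F3, a mouse B cell precursor line. Wild-type Ba/F3 cells were immunoprecipitated with an anti-BAP1 antibody, and Ba/F3 cells with stable expression of murine BAP1 carrying a triple FLAG tag, kept under puromycin, with an anti-FLAG antibody. Each immunoprecipitation was 1 sample, the peaks of both are in 1 combined list, and the list holds positions alone, so no peak could be traced to an antibody and no replicate error could be computed. Input DNA, H2AK119ub samples and the *Bap1* knockout clones KO3 and KO4 of the series were not analysed here.

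BAP1 is an enzyme with no known sequence-specific DNA-binding domain, and works in a complex with ASXL proteins, the cofactor HCF1, the glycosyltransferase OGT and forkhead factors. YY1 is known as a partner of BAP1 and HCF1, and the zinc finger protein ZNF143 (*Zfp143* in the mouse) and THAP11 as promoter factors that recruit HCF1. NRF1, GABPA, ELF1, SP1, the CCAAT-box factor NFY (whose subunits include NFYA and NFYB) and CREB1 are known to bind near the TSSs of widely expressed genes, many of them in CpG islands.

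The sequences which carry the results are shown first. They were read from the mm9 genome 5′ to 3′ on the strand of the gene, leave out exon sequence except for stretches of 30 bases around a match, and have in capitals the letters of a motif match on either strand. The letters searched were AANATGGC for YY1, ACTACANNT for the motif shared by ZNF143 and THAP11, CCCAGNATG for ZNF143, GCGCANGCG for NRF1, CCGGAAGT for the ETS family to which GABPA and ELF1 belong, GGGGCGGGG for SP1, CCAATNNG for NFY and the palindrome TGACGTCA for CREB1, where N is any base. A match is a description of the sequence and not a bound site. Matches of different motifs were counted separately where they overlapped.

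The first 3 sequences are the *Yy1* promoter peak and the intronic pair of peaks of the same gene, which overlap by 54 bp. They are shown for the row of YY1 letters in the first intron, at chr12:110032302-110032477 and chr12:110032424-110032623, and for the CREB1 and NFY letters upstream, at chr12:110030921-110031120, all on the plus strand.
Yy1 promoter: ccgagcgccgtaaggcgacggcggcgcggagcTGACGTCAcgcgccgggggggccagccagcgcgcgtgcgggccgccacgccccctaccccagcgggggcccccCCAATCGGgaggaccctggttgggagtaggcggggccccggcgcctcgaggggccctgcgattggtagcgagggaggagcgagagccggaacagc
Yy1 intron, first peak: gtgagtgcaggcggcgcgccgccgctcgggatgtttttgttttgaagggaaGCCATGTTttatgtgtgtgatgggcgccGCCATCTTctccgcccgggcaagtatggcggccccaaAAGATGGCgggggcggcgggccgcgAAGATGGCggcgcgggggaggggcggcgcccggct
Yy1 intron, second peak: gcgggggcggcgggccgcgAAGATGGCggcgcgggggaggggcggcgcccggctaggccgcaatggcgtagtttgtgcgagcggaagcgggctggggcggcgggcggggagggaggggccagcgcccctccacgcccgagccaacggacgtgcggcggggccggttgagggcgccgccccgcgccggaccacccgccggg

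The next sequences are from *Zfp143* and *Thap11*, where the letters of other factors stood in the peaks and those of ZNF143 and THAP11 did not. The *Zfp143* stretches, with YY1 letters, are chr7:117204840-117204953 and, in an exon of the neighbour *AA474408*, chr7:117204821-117204850. The *Thap11* stretches are chr8:108378874-108379002 with ETS letters and chr8:108379036-108379065 with NRF1 letters, all on the plus strand.
Zfp143 upstream peak: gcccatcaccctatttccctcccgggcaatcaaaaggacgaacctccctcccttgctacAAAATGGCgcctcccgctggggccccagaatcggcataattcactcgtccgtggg
Zfp143 upstream peak, exon of AA474408: gccctgtagggAAAATGGCgcccatcaccc
Thap11 promoter: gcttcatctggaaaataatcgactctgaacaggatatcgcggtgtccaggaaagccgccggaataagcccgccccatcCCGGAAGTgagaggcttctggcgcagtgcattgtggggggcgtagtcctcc
Thap11 exon: cgactccgaaGCGCAGGCGgacggccgggt

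The *Gabpa* stretch at chr16:84835092-84835121 and the *Sp1* stretch at chr15:102236615-102236707, both on the plus strand, are shown because each holds letters of the gene's own factor. The *Nfya* stretches on the minus strand, at chr17:48549540-48549569 (YY1 letters), chr17:48549103-48549132 (NRF1 letters) and chr17:48549149-48549178 (SP1 letters), and the *Nfyb* promoter at chr10:82226890-82227032 on the minus strand, hold letters of other factors.
Gabpa promoter, exon of Atp5j: gccaccgttctACTTCCGGccctggctccg
Sp1 first intron: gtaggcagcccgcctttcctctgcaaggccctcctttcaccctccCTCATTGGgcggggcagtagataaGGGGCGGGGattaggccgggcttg
Nfya upstream peak, exon of AI314976: tacgcacactcAAGATGGCcgcccccatcc
Nfya first exons, NRF1 letters: ggtctcgaaggCGCTTGCGCgaaggcggtt
Nfya first exons, SP1 letters: gctcttcctagGGGGCGGGGccaggctggc
Nfyb promoter: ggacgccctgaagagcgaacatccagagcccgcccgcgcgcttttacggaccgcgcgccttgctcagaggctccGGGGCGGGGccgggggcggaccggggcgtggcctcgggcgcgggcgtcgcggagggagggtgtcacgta

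All 10 genes had a BAP1 peak within 1 kb of a TSS, against 39.6% of protein-coding genes (8850 of 22367, 95% Wilson interval 38.9 to 40.2%) and 26.2% of all annotated genes (9760 of 37273). Of the 10, 7 had more than 1 peak, against 10.1% of protein-coding genes (2256 of 22367), and *Yy1*, with 3, was in the 1.82% of the 8850 bound genes that had 3 peaks. The lists of *Yy1*, *Thap11* and *Nrf1* each held a pair of overlapping peaks. With peaks merged across gaps of up to 500 bp, 2 of the 10 (*Yy1* and *Gabpa*) had more than 1, against 2.31% of protein-coding genes (517 of 22367). With a window of 100 bp it was 1 of 10, *Sp1*, against 2.66%. The number of annotated TSSs moved with these shares. Among protein-coding genes with 1 TSS, 23.8% had a peak and 5.18% had at least 2, and among genes with 7 or more TSSs, 69.9% and 22.1%. *Nrf1* had 17 distinct TSSs, *Nfya* 12, *Sp1* and *Nfyb* 8 each, *Gabpa* 6, *Yy1*, *Elf1* and *Creb1* 3 each, and *Zfp143* and *Thap11* 1 each. The part of TSS number in the members' counts was not tested.

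By the median, the members' peaks lay about as near to a TSS as other gene-proximal peaks did, but a smaller share lay within 100 bp. The median distance from the middle of the peak to the nearest TSS of any gene was 56.5 bp over the 18 peaks and 53 bp over all 10073 peaks within 1 kb of a TSS, and 11 of the 18 (61.1%, against 71.7%) lay within 100 bp. Measured to the TSSs of the member alone, the median was 125.5 bp, with 9 peaks within 100 bp, 7 at 100 to 500 bp and 2 at 500 to 1000 bp. The middle was upstream of the member's nearest TSS in 11 peaks and downstream in 7. It fell outside the gene in 9 peaks, in an intron in 5, in an untranslated exon in 3, in a non-coding exon in 1 and in coding sequence in 0.

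**Figure D1:**
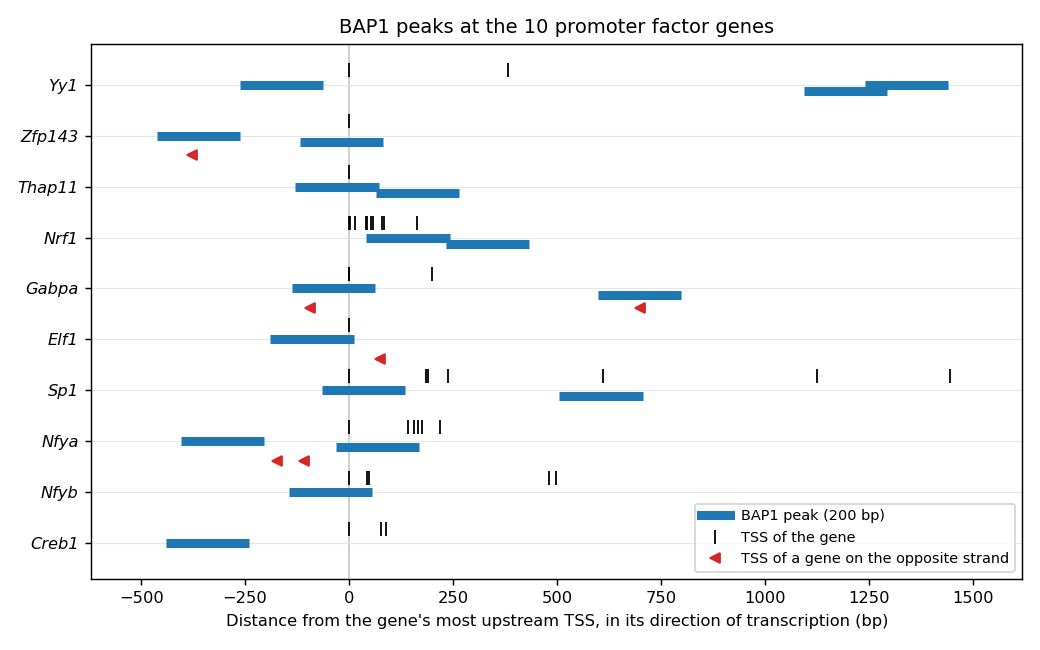
BAP1 peaks at the 10 genes, with the distance from the most upstream TSS on the x axis (bp, in the direction of transcription) and 1 row per gene. Blue bars are peaks of 200 bp, black ticks the gene's TSSs and red triangles the TSS of a gene on the opposite strand nearest to each peak. *Yy1* stands apart with its pair of overlapping peaks more than 1 kb downstream of its first TSS.

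*Yy1* is on chromosome 12 (110031183 to 110054842, plus strand). Its 3 peaks had their middles at -162, +812 and +958 bp from the nearest TSS, where minus is upstream. The last 2 were measured from the TSS of an alternative protein-coding transcript, 383 bp downstream of the first TSS, and lay at +1195 and +1341 bp from the first. Both were in the first intron of the transcript from the first TSS, and the first 24 bases of the nearer one were exon. They are the members' peaks nearest to the inside of the 1 kb limit. No member had a peak just outside it. The next one was at -3117 bp for *Thap11*, -7484 bp for *Nrf1*, -19269 bp for *Sp1*, -26552 bp for *Yy1* and -43330 bp for *Zfp143*. That of *Nrf1* lay inside the gene, upstream of one of its internal TSSs. The other 5 genes had no further peak within 50 kb.

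The intronic *Yy1* peak at +812 bp held 4 matches to the YY1 letters within its 200 bp. Among all 13164 peaks, 1000 (7.6%) held at least 1 match, 47 (0.357%) held at least 2, and this peak was the 1 that held 3 or more. Their middles lay 21 bp before and 7, 44 and 69 bp after the middle of the peak. The earlier pair was on the minus strand and the later pair on the plus strand. Of the 4, 3 read AAGATGGC and 1 read AACATGGC. No further match was found when the search was widened to 1 kb on either side (4 matches in 2000 bp). The match farthest downstream also lay in the overlapping peak at +958 bp. The *Yy1* promoter peak at -162 bp held no YY1 letters and had 1 match each for CREB1 and NFY. This count was looked at after the sequence of the peak had been seen, and no test was made of it.

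*Zfp143* and *Thap11* code for factors that share the motif ACTACANNT. *Zfp143* (chromosome 7, 117205216 to 117238906, plus strand) had peaks at -19 bp, over its single TSS, and at -362 bp. The second lay 15 bp upstream of the TSS of *AA474408*, a protein-coding gene on the opposite strand, and the TSSs of the genes were 377 bp apart. That peak held 2 matches to the YY1 letters and is thus among the 47 peaks with at least 2, while the peak over the *Zfp143* TSS held none of the motifs. *Thap11* (chromosome 8, 108379003 to 108380850, plus strand), a gene with a single transcript, had peaks at -29 bp and +164 bp that overlapped by 7 bp. The upstream peak held CCCGGAAGT, the form of the ETS letters searched for ELF1, and 1 NRF1 match, and the downstream peak, in an untranslated exon, held no match. The letters searched for the ZNF143 motifs were in no peak of either gene. Of less exact forms, only the shorter cores given below were searched.

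*Nrf1* (chromosome 6, 29997988 to 30103458, plus strand), whose product drives genes of mitochondrial respiration, had peaks at -21 bp and +170 bp that overlapped by 9 bp. Both distances were measured from a TSS 163 bp downstream of the first, that of a transcript not annotated as protein-coding. From the first TSS the middles lay at +142 and +333 bp. The first peak covered 6 of the gene's TSSs. No peak held NRF1 letters, and the second held 1 SP1 match in a non-coding exon. Both were rich in G and C, at 77.5% and 80.5%.

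The ETS factor genes differed from each other. *Gabpa* (chromosome 16, 84835170 to 84864024, plus strand), the DNA-binding subunit of GA-binding protein, had a peak at -38 bp with an ETS match on the opposite strand, 25 bp before the middle of the peak, in an exon of *Atp5j*. *Atp5j* codes for a subunit of mitochondrial ATP synthase on the opposite strand, and its TSS nearest to the peak is 93 bp from that of *Gabpa*. A second *Gabpa* peak, at +499 bp, had its middle 2 bp from another *Atp5j* TSS and held none of the motifs. *Elf1* (chromosome 14, 79881001 to 79982283, plus strand) had 1 peak, at -89 bp, in exon sequence of *Wbp4* on the opposite strand, whose TSS lies 74 bp from that of *Elf1*. It held no match, although its ratio of observed to expected CpG, 1.18, was above 96% of gene-proximal peaks. The first *Elf1* TSS is that of 1 of the gene's 4 transcripts. Its other TSSs lie 34480 and 34492 bp further downstream and had no peak within 1 kb.

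*Sp1* (chromosome 15, 102236574 to 102266835, plus strand), a zinc finger activator that binds GC boxes, had a peak at +34 bp from its first TSS and a second at -6 bp from an alternative TSS that starts 612 bp further downstream. The first held 1 SP1 match, 80.5 bp after the middle of the peak, and 2 NFY matches. The second was 82.5% G and C, at the 98.2 percentile of gene-proximal peaks, and held no match to the 9 letters searched for SP1.

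*Nfya* (chromosome 17, 48526210 to 48549231, minus strand) had peaks at +69 and -305 bp. The first covered 4 of its TSSs and held 2 NRF1, 1 SP1 and 1 YY1 matches, the most kinds of motif (3) in any of the 18 peaks. The second, with its middle 131 bp downstream of the TSS of *AI314976* on the opposite strand, held 1 YY1 match in an exon of that gene. *Nfyb* (chromosome 10, 82211446 to 82226889, minus strand) had 1 peak, at -44 bp, with 1 SP1 match. Neither gene had NFY letters in a peak. *Creb1* (chromosome 1, 64579378 to 64651121, plus strand), a factor that responds to cyclic AMP, had 1 peak at -341 bp, which covered none of its 3 TSSs and held none of the motifs.

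Over the 18 peaks, the letters of YY1 were in 5 (27.8%, against 9% of all gene-proximal peaks), those of SP1 in 4 (22.2%, against 23.5%), and those of NRF1, ETS and NFY in 2 each (11.1%, against 16%, 9.5% and 16.1%). CREB1 letters were in 1 (5.56%, against 3.35%) and the letters of neither ZNF143 motif were in any (against 3.9% and 1.7%). The 5 peaks with YY1 letters belonged to 3 genes, *Yy1*, *Zfp143* and *Nfya*. Of these, the *Yy1* peak at +958 bp counted only through a match it shares with the overlapping peak at +812 bp. None of the motifs was in 7 peaks (38.9%), close to the 37.5% of gene-proximal peaks without one. The factor's own letters lay in a peak of 3 of the 10 genes, *Yy1*, *Gabpa* and *Sp1*. Over all gene-proximal peaks, 9% held the letters of YY1, 9.5% those of ETS and 23.5% those of SP1. Each of these 3 genes had more than 1 peak to search. No share over all genes was computed for this count, and it was not tested.

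**Figure D2:**
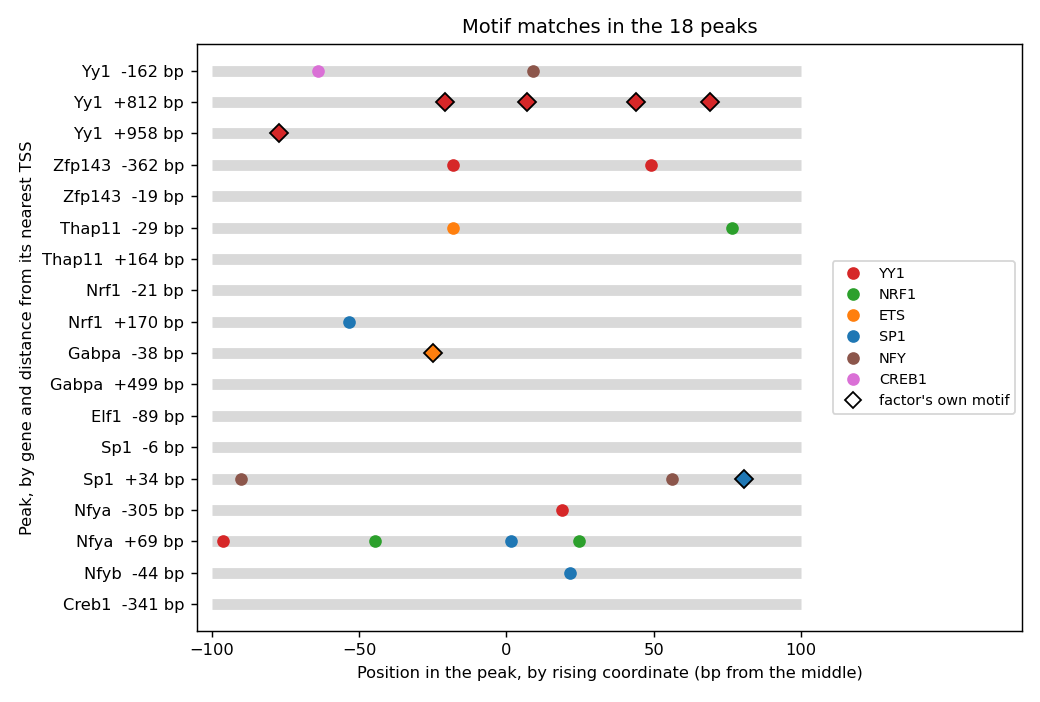
Motif matches in the 18 peaks, 1 row per peak, with the position in bp from the middle of the peak on the x axis. Colours stand for motifs and outlined diamonds for the motif of the gene's own factor. The row of 4 YY1 diamonds in the *Yy1* peak at +812 bp and the 7 empty rows are the features to see.

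With shorter cores in place of the full letters, own letters were found in a peak of 5 genes, and *Zfp143* and *Nrf1* joined the list. For *Nrf1* they were in both peaks. When 400 bp around each middle were searched, *Nfya* and *Nfyb* joined in place of those, again 5 genes. With 100 bp searched, 2 genes were left, *Yy1* and *Gabpa*. Under the shorter cores, 87.4% of all peaks held at least 1 of the motifs, so that such a match says less.

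The members' peaks were slightly richer in G, C and CpG than gene-proximal peaks in general. The median GC content was 71.8% over the 18 peaks and 67% over all gene-proximal peaks, the median ratio of observed to expected CpG 0.95 and 0.88, and the median number of CpGs 23.5 and 19. The range was wide, from the 56% GC of the *Zfp143* TSS peak (10.1 percentile of gene-proximal peaks) to the 82.5% of the second *Sp1* and the far *Yy1* peak.

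Of the 10 genes, 4 had the TSS of another protein-coding gene on the opposite strand within 1 kb of a peak (*Zfp143* with *AA474408*, *Gabpa* with *Atp5j*, *Elf1* with *Wbp4*, *Nfya* with *AI314976*). Among all 8850 bound protein-coding genes, 2149 (24.3%) did. At these 4 genes, 7 peaks had TSSs of both genes within 1 kb, and the peaks at -362 bp of *Zfp143*, +499 bp of *Gabpa* and -305 bp of *Nfya* lay nearer to the neighbour's TSS.

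The motifs that selected the 10 factors are described next over all peaks. At least 1 of the 8 motifs was in 54% of the 13164 peaks, in 62.5% of the 10073 gene-proximal peaks and in 26.2% of the 3091 others. In windows of 200 bp placed 1 kb to either side of each peak the share was 13.4%. SP1 letters were the most frequent, in 23.5% of gene-proximal peaks, followed by NFY (16.1%), NRF1 (16%), ETS (9.5%), YY1 (9%), the ZNF143 and THAP11 motif (3.9%), CREB1 (3.35%) and the second ZNF143 motif (1.7%). In the windows 1 kb away the order was another, with NFY first (5.21%), YY1 second (3.44%), and ETS last (0.289%). These windows had a median GC content of 46%, against 65% in the peaks, and the part of base composition in the differences was not tested there. The motifs also fix different numbers of bases, so the order of their shares depends on the letters searched. With shorter cores, the second ZNF143 motif was in 18.5% of all peaks and YY1 in 13.6%.

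**Figure D3:**
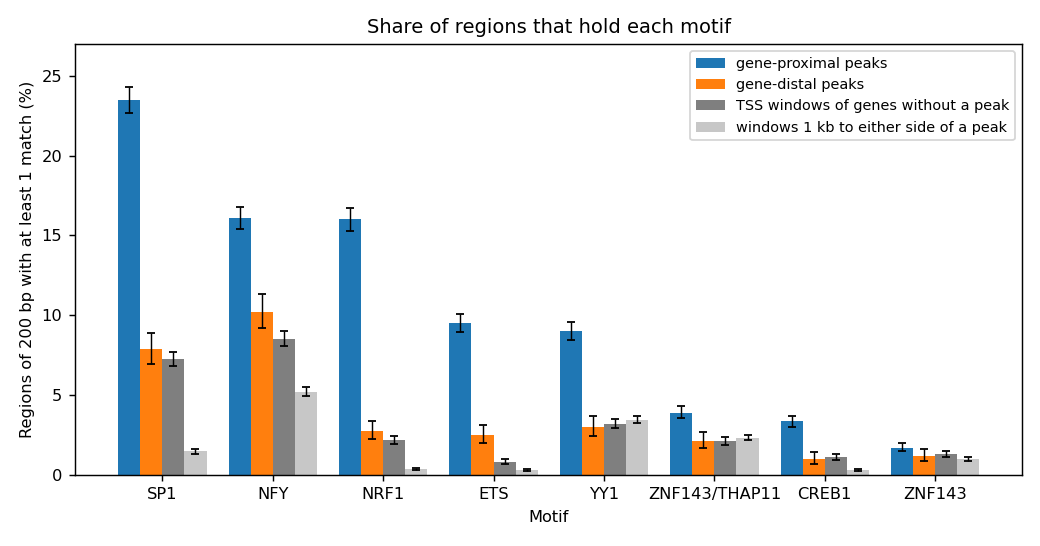
Percent of 200 bp regions with at least 1 match to each motif (y axis), in gene-proximal and gene-distal BAP1 peaks, in windows at the TSSs of protein-coding genes without a peak, and in windows 1 kb from each peak. Error bars are 95% Wilson intervals, for counting error only. The gene-proximal bar is the tallest for each of the 8 motifs, though for ZNF143 its interval (1.46 to 1.97%) overlaps those of gene-distal peaks (0.842 to 1.61%) and of TSS windows without a peak (1.14 to 1.52%).

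Read from the genes, the motifs differed in how often a gene that carried them had a BAP1 peak. Among the 930 protein-coding genes with ETS letters in the 200 bp around the TSS of their longest transcript, 88% had a peak within 1 kb of a TSS (interval 85.7 to 89.9%), against 37.5% of genes without them. The share was 80.7% against 36.6% for NRF1 (1505 genes), 66.4% against 37.9% for YY1 (1282 genes), 65.7% against 39.1% for CREB1 (434 genes) and 63.8% against 36.2% for SP1 (2700 genes). It was lower for the ZNF143 and THAP11 motif (57.8% against 39%), for NFY (52.5% against 38%) and for the second ZNF143 motif (46.9% against 39.5%). With the base before the ETS letters fixed, 92.5% of the 228 genes with ACCGGAAGT, the form searched for GABPA, and 89% of the 310 with CCCGGAAGT, that searched for ELF1, had a peak (88.4 to 95.3% and 85.1 to 92%).

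CpG content moved with these shares. The windows of genes with a peak had a median ratio of observed to expected CpG of 0.88, and those of genes without a peak 0.33. A comparison added after seeing the data was therefore limited to the 11133 genes whose TSS window had a ratio of at least 0.6 and at least 50% GC. There the difference for SP1 was small, with a peak at 68.8% of genes with the letters (66.9 to 70.6%) and 66.5% of genes without (65.5 to 67.5%). For ETS it was 93% against 64.9%, for YY1 89.8% against 65%, for NRF1 82.7% against 64.7%, for the ZNF143 and THAP11 motif 81.6% against 66.5%, for CREB1 77.6% against 66.7%, for NFY 75.5% against 65.7% and for the second ZNF143 motif 74.4% against 66.9%. These shares describe the motifs that selected the factors. YY1 was close to ETS in this set (89.8% and 93%), and farther below it over all genes (66.4% and 88%).

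**Figure D4:**
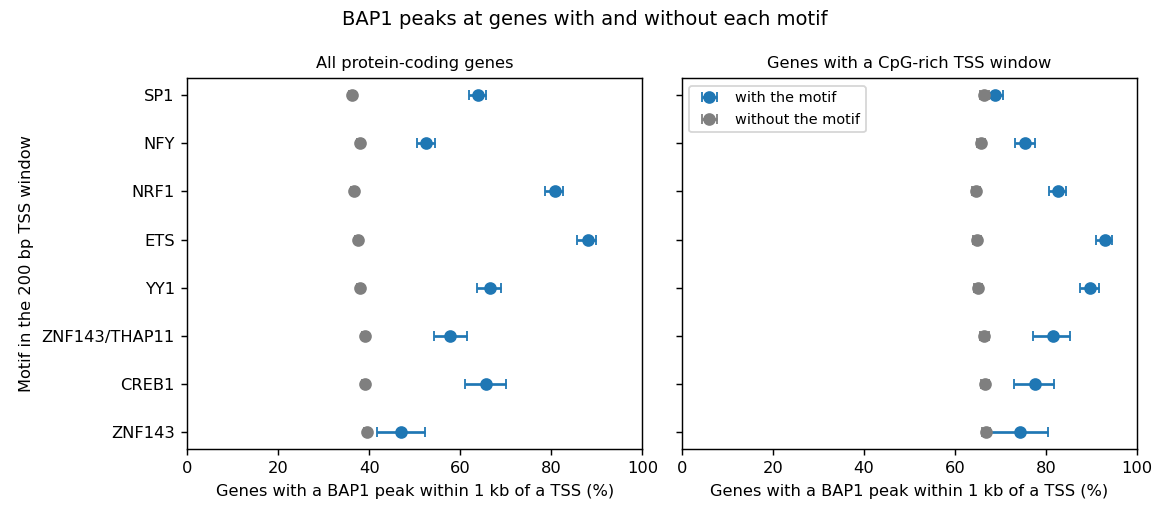
Percent of protein-coding genes with a BAP1 peak within 1 kb of a TSS (x axis), for genes with (blue) and without (grey) each motif in the 200 bp around the TSS, over all genes (left) and over genes with a CpG-rich TSS window (right). Bars are 95% Wilson intervals, for counting error only. In the right panel the points of SP1 nearly coincide (68.8% and 66.5%) and those of ETS (93% and 64.9%) and YY1 (89.8% and 65%) stay apart.

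Position within the peak differed between motifs. For CREB1, SP1, ETS and NRF1 the density of matches was highest at the middle of the peak, and the median distance of a match from the middle was 29.5, 32.5, 33 and 33.5 bp. Within 25 bp of the middle, the density was 27.1 times that at 400 to 500 bp for ETS, 16.2 times for NRF1, 15.1 times for CREB1, 11.1 times for SP1 and 4.48 times for NFY. It was lower for YY1 (2.18 times, median distance 52 bp), the ZNF143 and THAP11 motif (1.98 times, 48.5 bp) and the second ZNF143 motif (1.88 times, 36.5 bp). The fixed letters of ETS, NRF1, CREB1 and SP1 hold CG, and those of the other motifs do not. The median ratio of observed to expected CpG was 0.82 in the peaks and 0.26 in the windows 1 kb away. The part of base composition in these densities was not tested. Within 25 bp of the middle lay 22.2% of 1096 YY1 matches (19.8 to 24.7%), 23.9% of those of the ZNF143 and THAP11 motif (20.4 to 27.8%) and 39.9% of ETS matches (37.2 to 42.8%). The YY1 density had a dip at the middle of the peak and a maximum to either side.

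**Figure D5:**
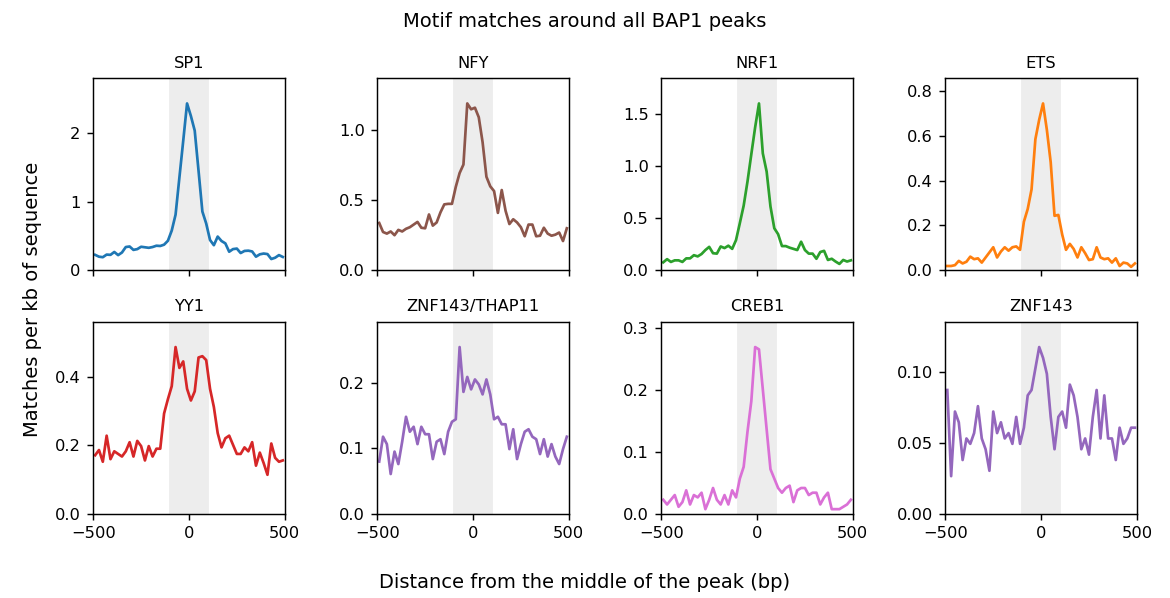
Matches per kb of sequence (y axis) by distance from the middle of the peak (x axis, bp, bins of 20 bp) for the 8 motifs over all 13164 peaks. Grey bands mark the 200 bp of the peak. Base composition was not taken into account. The curves of SP1, NFY, NRF1, ETS and CREB1 are highest near the middle, that of the ZNF143 and THAP11 motif is broad, and the YY1 curve has a dip at the middle between shoulders on both sides.

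Relative to the TSS, YY1 letters were the ones with a median downstream. Their median position in gene-proximal peaks was 6 bp downstream of the nearest TSS, with 60.4% of 997 matches downstream (57.3 to 63.4%). The other motifs had their medians upstream, at -13 bp for ETS, -25 bp for CREB1, -26 bp for the second ZNF143 motif, -27 bp for NRF1, -43 bp for SP1, -52 bp for NFY and -60 bp for the ZNF143 and THAP11 motif. Seen in the direction of the gene, 61.6% of YY1 matches lay on the downstream side of the middle of the peak (58.5 to 64.6%) and 33.7% of those of the ZNF143 and THAP11 motif (29.5 to 38.2%). YY1 letters also had a preferred strand. Within 100 bp of a TSS, 589 of 817 matches (72.1%, 68.9 to 75.1%) read AANATGGC on the strand of the gene, against 50.4% for NRF1 and 50.2% for NFY. The share was 64.8% for the second ZNF143 motif, 61.5% for the motif shared with THAP11, 57.6% for ETS and 53.1% for SP1. In the members' peaks, measured to the member's own TSSs and strand, 1 YY1 match lay within 100 bp of a TSS. It was that in the *Nfya* peak at +69 bp, and it read against the gene. Farther out, the match in the *Nfya* peak at -305 bp and both at *Zfp143* read along the member. Of the 4 in the *Yy1* intron, 2 did. The shares over all peaks used the nearest TSS of any gene. The *Nfya* peak at -305 bp and the *Zfp143* peak at -362 bp lay nearer to the TSS of an opposite-strand neighbour, *AI314976* or *AA474408*. Relative to that neighbour their matches read against the gene, and both at *Zfp143* lay within 100 bp of its TSS.

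Motifs shared peaks to different degrees. Of the 13164 peaks, 14.6% held 2 or more kinds. The most common pair was NRF1 with SP1, in 356 peaks (21% of peaks with NRF1 letters and 13.6% of those with SP1 letters). Of the 207 peaks with CCCAGNATG, 21.7% also held ACTACANNT, which was in 3.48% of all peaks. Both are letters of ZNF143 and their spacing was not examined. A single site that held both would count as 2 kinds. ETS and YY1 letters met in 112 peaks, 10.8% of those with ETS and 11.2% of those with YY1. Among the members' peaks, 4 of 18 held more than 1 kind (22.2%, against 17.8% of gene-proximal peaks).

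The relatives and partners of the 10 factors were read from a list of 45 genes, of which 44 were found in the annotation. A peak within 1 kb of a TSS was at 33 of the 44 (75%, interval 60.6 to 85.4%), against the 39.6% of all protein-coding genes. Of the 44, 12 had 2 or more, against 10.1% of all protein-coding genes (2256 of 22367), with neighbouring peaks not merged. All 8 CREB relatives and coactivators had one, with 2 each at *Crem* and the acetyltransferase gene *Ep300*, as did *Nfyc*, the third NFY subunit, with 3 peaks. In the group of ZNF143 and THAP11 it was 7 of 8, among them *Hcfc1* and *Ogt*, which code for the BAP1 partners HCF1 and OGT and had 2 peaks each like *Thap2*, and the 1 without was *Thap3*. Among ETS genes it was 10 of 12, with *Gabpb1* and *Gabpb2*, the partner subunits of GABPA, at +8 and +9 bp, 2 peaks each at *Elf2* and *Elk4*, and none at *Elk3* and *Fli1*. Of the SP family, *Sp2*, *Sp3* and *Sp4* had 2 peaks each and *Sp5* to *Sp9* had none, so that 3 of 8 had a peak. Of YY1 relatives and partners, *Rybp* and *Yaf2*, which code for Polycomb proteins that bind YY1, had 1 peak each, and *Yy2* and *Zfp42*, retroposed copies of *Yy1*, had none. Of the coactivators of NRF1, *Pprc1* had 2 peaks, *Ppargc1b* 1 and *Ppargc1a* none. *Gabpb1*, *Gabpb2*, *Rybp*, *Yaf2* and *Ppargc1b* are named for their known partner role and were picked after their values were seen. Expression of these genes was not analysed here.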

How the data were processed

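The deposited file is 1 list of BAP1 ChIP-Seq peaks from the anti-BAP1 and anti-FLAG samples, without values per sample. The authors used Bowtie 1.0.0 (mm9) and MACS 1.4.2 with input DNA as control, as the submitters' processing notes and methods name them. Each deposited row gives a peak's first and last position in bp and carries no score, height or p-value. Every peak was 200 bp wide. How the samples were combined, and at which threshold, is not given in the sources used here. The list does not give the depth behind a peak. The paper reports read intensities for its peaks, which were not used here. With 1 sample per antibody no test between groups was made. Columns of per-sample values left unused numbered 0.

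Peak middles (start + 100) were set against every TSS of GENCODE release M1 on the same genome, without the mitochondrial chromosome. Motif letters were searched on both strands with Python 3.11.15, pandas 2.3.3 and pysam 0.24.0, and both steps were tested on simulated data (bedtools 2.31.1 for distances). Percentages have 95% Wilson intervals (scipy 1.17.1), which cover counting error only. Named genes were the 10 factors, listed relatives with no peak or more than 1, and genes with a TSS within 1 kb of a peak of a factor. *Spi1* was matched by its older symbol through RefSeq names. The members and lists were chosen with earlier results of these data known. Alternatives are given in the closing section.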

Additional observations from a re-analysis of the deposited data

How the results depend on the processing

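All 10 genes had a peak under each window and annotation choice tried except the window of 100 bp, which left 8 (*Yy1* and *Creb1* dropped out) and 9 of the 18 peaks. With peaks merged across gaps of up to 500 bp, the 18 peaks became 12 and 2 genes, *Yy1* and *Gabpa*, had more than 1 (2.31% of protein-coding genes). The percent of protein-coding genes with a peak was 38.6 with a window of 500 bp, 30.8 with 100 bp, 42.5 with 5 kb and 37.6 with 1 TSS per gene, and between 39.2 and 39.7 with the other choices. Relatives with a peak ranged from 22 (100 bp) to 33. The number of genes with their own motif in a peak was 5 with shorter cores, 5 with 400 bp searched and 2 with 100 bp. The percent of peaks with at least 1 motif was 87.4 with shorter cores, 65.5 with 400 bp, 39.6 with 100 bp, 62.5 in gene-proximal and 26.2 in gene-distal peaks. Shares of single motifs moved in the same way, and SP1 letters rose from 19.8% to 59.5% of peaks with the core GGGCGG. No paired analysis was possible because the list holds no values per sample.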
